A study of Mus musculus with 4 samples.

Results

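The interleukin-6 family was followed through 9 genes of the 55450 in the matrix. They were the cytokine genes Il6, Lif, Osm and Il11, the receptor chain genes Il6ra, Il6st, Osmr and Lifr, and the feedback inhibitor gene Socs3. They were taken by gene symbol and not by a threshold on a measured value, but with earlier results of these data known. Their unique molecular identifiers (UMIs, 1 for each captured transcript molecule) were summed over cells gated by marker genes, and none of the 9 served as a gate marker. The data were 10x Genomics 3′ single-cell RNA sequencing of 4T1 tumours. 4T1 is a mouse mammary carcinoma line, here implanted as 1000000 cells into the right flank of female BALB/c mice aged 6 to 8 weeks. Of the 4 samples, 2 were PBS, 1 was TIOs+NIR, and 1 was left unassigned because its title names PBS and its treatment text names TIOs. TIOs are cells of a mouse macrophage line loaded with light-converting nanoparticles that carry the photosensitiser Ce6 and the ferroptosis inducer RSL3, then frozen in liquid nitrogen. All mice were injected intravenously on day 7. On each of days 8, 9 and 10 they were lit for 5 min with a 980 nm laser at a power density of 1.0 W cm-2, the PBS mice included. Tumours were taken on day 13 and sorted for CD45.

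The barcodes carried 4 suffixes, called libraries 1 to 4 here, and none could be linked to a sample. Treatment was therefore not compared and no p-value was computed. Each library is a sample of unknown treatment, and intervals (95%, exact Poisson for levels and Clopper-Pearson for shares) cover counting error only. The filter left 32133 of 33064 barcodes, and the libraries held 69255999 to 108646352 UMIs, with a median of 2642 to 11698 UMIs per kept cell. Gates on 14 cell types took 25252 cells, and 115 of 123 gate markers were detected in the largest share of cells in their own type. The same markers set the gates, so this count does not test them. Although the sort was for CD45, 7313 gated cells were tumour or epithelial cells, fibroblasts, pericytes or endothelial cells. Ptprc, the gene of CD45, lay at 15.7 UMIs per 1000000 UMIs (counts per 1000000, CPM) in fibroblasts and 9.32 in tumour or epithelial cells, against 794 in T cells. Over the gated leukocyte types it ran from 139 in mature dendritic cells to 1485 in NK cells, with macrophages at 231. The 3264 tumour or epithelial cells came almost wholly from library 1 (3092) and library 2 (171). Libraries 1 to 4 held 181, 1401, 987 and 1059 fibroblasts. A total of 101 barcodes occurred in 2 libraries.

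Receptors of this family share gp130, the signalling chain encoded by Il6st, which pairs with further chains that differ between cytokines. Bound gp130 activates JAK kinases and STAT3, and STAT3 induces Socs3, which shuts the receptor down. Interleukin-6 uses the chain of Il6ra, interleukin-11 that of Il11ra1, leukaemia inhibitory factor that of Lifr, and oncostatin M that of Osmr or Lifr. In tumours the family is known for signals between myeloid cells, stromal fibroblasts and carcinoma cells.

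Promoter windows (250 bases before to 50 after the start, RefSeq, GRCm38.p6) were found for 8 of the 9 genes, all but Osm. They were searched on both strands for TTCNNNGAA, the core letters that STAT factors recognise, and for TGANTCA. The latter takes in the AP-1 letters TGACTCA and TGAGTCA but admits any middle letter. The letters of either motif pair with themselves when the strand is turned over. TTCNNNGAA stood in 1 of the 8 genes, Socs3, against 9.55% of all 27025 genes with a window, or 8.3% of all 32851 windows. TGANTCA stood in 4 of the 8, Il6, Lif, Il11 and Osmr, against 8.97% of all genes, or 7.81% of all windows. The Osmr match was TGATTCA, which is not one of the AP-1 letters named, and the shares over all genes include such matches. The letters TGACGTCA, recognised by CREB and ATF factors, stood in 0 of the 8 and in 1.79% of all windows. The 5 windows with a match are printed because they show the members that share letters, with the matched letters in capitals. Il11 and Lifr each had 2 windows, and only the Il11 window with the match is shown. A match describes the letters and does not show that a factor binds there.
Socs3: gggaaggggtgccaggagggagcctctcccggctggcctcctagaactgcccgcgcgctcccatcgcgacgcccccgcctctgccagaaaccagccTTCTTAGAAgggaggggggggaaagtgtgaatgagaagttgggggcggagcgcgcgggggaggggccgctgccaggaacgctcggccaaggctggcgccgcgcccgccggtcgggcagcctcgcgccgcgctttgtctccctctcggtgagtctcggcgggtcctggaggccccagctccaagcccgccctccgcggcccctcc
Il6: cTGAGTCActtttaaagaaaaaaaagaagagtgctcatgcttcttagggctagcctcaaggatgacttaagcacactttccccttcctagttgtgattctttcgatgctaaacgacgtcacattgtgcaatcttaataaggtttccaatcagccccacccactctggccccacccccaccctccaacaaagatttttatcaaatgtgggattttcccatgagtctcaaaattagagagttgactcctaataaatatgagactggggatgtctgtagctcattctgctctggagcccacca
Lif: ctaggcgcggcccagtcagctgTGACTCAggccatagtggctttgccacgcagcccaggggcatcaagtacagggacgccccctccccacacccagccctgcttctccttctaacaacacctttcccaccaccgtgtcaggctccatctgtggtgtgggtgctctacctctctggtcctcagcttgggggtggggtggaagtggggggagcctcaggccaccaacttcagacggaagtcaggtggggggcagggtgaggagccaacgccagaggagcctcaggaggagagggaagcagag
Il11: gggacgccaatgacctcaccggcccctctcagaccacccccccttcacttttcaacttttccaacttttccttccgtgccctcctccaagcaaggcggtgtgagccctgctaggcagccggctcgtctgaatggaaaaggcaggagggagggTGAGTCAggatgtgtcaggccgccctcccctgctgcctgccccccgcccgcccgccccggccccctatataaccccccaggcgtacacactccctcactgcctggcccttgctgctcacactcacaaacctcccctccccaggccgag
Osmr: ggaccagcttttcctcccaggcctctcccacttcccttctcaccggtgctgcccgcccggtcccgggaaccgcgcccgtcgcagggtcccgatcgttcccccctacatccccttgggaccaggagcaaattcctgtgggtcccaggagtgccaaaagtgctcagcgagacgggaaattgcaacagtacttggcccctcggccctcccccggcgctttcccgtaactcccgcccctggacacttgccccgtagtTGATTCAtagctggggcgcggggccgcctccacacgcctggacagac

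Socs3 (chr11:117969317-117969616, minus strand) had its match 154 bases before the start. Il6 (chr5:30012864-30013163, plus strand) had its match at 249 bases before the start, Lif (chr11:4257318-4257617, plus strand) at 228 and Il11 (chr7:4778092-4778391, minus strand) at 98. In Osmr (chr15:6874264-6874563, minus strand) the match lay 3 bases after the start. Lif (chr11:4257557-4272514) and Osm (chr11:4236420-4241026) are neighbouring genes on the same strand, and Osmr (chr15:6813577-6874969) and Lifr (chr15:7090614-7197489) lie on chromosome 15 on opposite strands (gene coordinates from GENCODE vM21, GRCm38).

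With the 4 libraries summed, fibroblasts held most of the family's transcripts. Over 50% of the UMIs of 5 of the 9 genes lay in them, although they were 3628 of 32133 cells. All 5 genes passed 50% in each of libraries 2 to 4, and none did in library 1, where 181 cells were fibroblasts. Fibroblasts held 32.6% of all UMIs of the kept cells, and 15.9% of 17349 genes with at least 100 UMIs had over 50% of theirs in fibroblasts. The median over those genes was 31.8%. The share was 81.2% for Il6, 75.8% for Il6st, 74.2% for Osmr, 69.2% for Il11 and 55.3% for Lifr. For Lif it was 48.5%, with 20.8% in tumour or epithelial cells, and for Socs3 it was 38.5%. Osm was the gene that fibroblasts held least of: 31.6% of its UMIs lay in neutrophils, 23.2% in macrophages and 19.6% in monocytes. Il6ra was the most dispersed, with 21% in monocytes and between 13% and 13.8% in each of fibroblasts, macrophages, neutrophils and tumour or epithelial cells. These shares weigh cells by depth, and a fibroblast had a median of 29383 UMIs against 1814 for a neutrophil. Levels below are therefore CPM, the gene's UMIs scaled to 1000000 over the summed cells of a type.

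**Figure D1:**
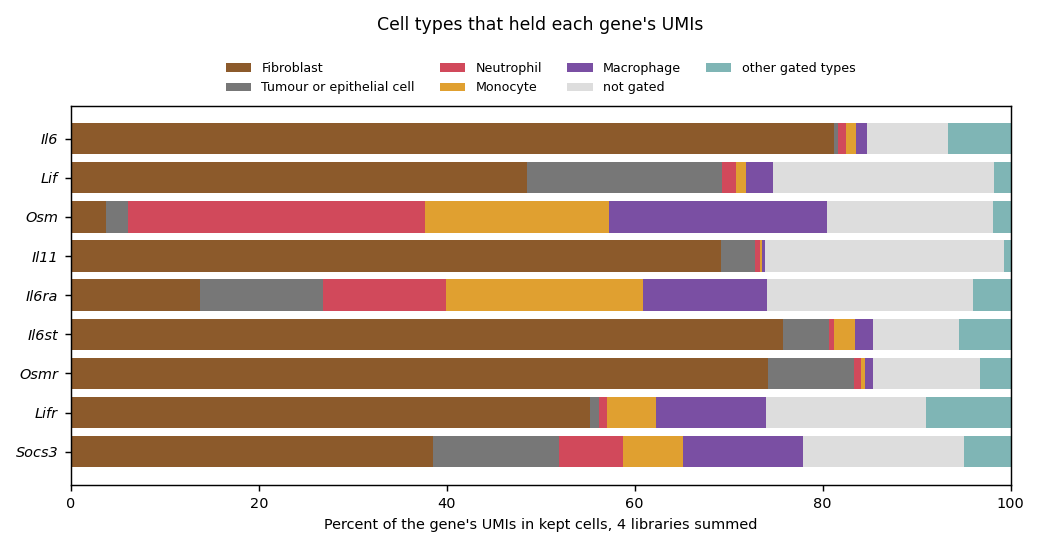
Horizontal bars give the percent of each gene's UMIs found in each gated cell type, with the 4 libraries summed. The fibroblast segment is the longest for Il6 (81.2%), Il6st (75.8%), Osmr (74.2%) and Il11 (69.2%), and Osm lies mainly in neutrophils, macrophages and monocytes.

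The cell type with the highest level was set beside the other genes of the matrix. Among the 6 types with at least 20 cells in every library (neutrophils, monocytes, macrophages, conventional dendritic cells, T cells and fibroblasts), 4 of the 9 genes had the same leading type in all 4 libraries. They were Il6, Il11, Il6st and Osmr, and the type was the fibroblast each time. The same was true of 38.1% of 11462 genes, so a share of 4 in 9 was near the background. Without library 4, when endothelial cells also had 20 cells in every remaining library, the count was 3 (Lif, Il11 and Osmr). The share over all genes is not given for that set. When every type with 20 cells in a library was ranked, only Il11 of the 9 kept one leading type, against 11.7% of 11462 genes.

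Il6 encodes interleukin-6, the founding cytokine of the family. In fibroblasts it lay at 41.5, 358, 193 and 125 CPM in libraries 1 to 4. After each cell was thinned to 1000 UMIs, 3.93%, 25.5%, 17.4% and 11% of fibroblasts held an Il6 UMI. Libraries 2 to 4 were all above library 1, and no 2 of the 4 intervals overlapped. The other high types were also stromal or rare. Pericytes or smooth muscle cells lay at 389 and 305 in libraries 2 and 3, and endothelial cells at 47.3, 173 and 161 in libraries 1 to 3. Both ranges overlapped that of fibroblasts over all libraries. Within libraries 2 and 3 the pericyte level was above that of fibroblasts in each. In the thinned data 21.9% and 18.9% of those pericytes held an Il6 UMI, below and above the fibroblast share. The pooled endothelial level of 151 was 345 when every cell was thinned to the same depth. Basophils or mast cells gave the highest level of all, 481 (340 to 660) in the 21 cells of library 2 and 1369 (1150 to 1619) in the 24 cells of library 4. The 16 and 17 such cells of libraries 1 and 3 were at 356 (228 to 530) and 1001 (786 to 1256). In the thinned data 44% of basophils or mast cells held an Il6 UMI. Pericytes were the next type in the order, but they were ranked in libraries 2 and 3, so only library 2 compared both types. There the interval of basophils or mast cells, 340 to 660, included the pericyte level of 389. Tumour or epithelial cells were at 0.678 in library 1 and 11.8 in library 2, with a pooled level of 1.77.

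Neutrophils and T cells had no Il6 UMI in library 1, which allows up to 2.31 and 1.66 CPM by the limit of 3 counts. In libraries 2 to 4 neutrophils lay at 22.3, 12.6 and 9.83. Set against fibroblasts of the same library, that was 6.21%, 6.53% and 7.9% of their level. The 10 fibroblast gate markers, which neutrophils should lack, were at 3.42%, 3.85% and 5.22% in the same cells. Neutrophil Il6 was thus low beside fibroblasts but lay above the share of the markers in each of libraries 2 to 4. Pericytes and basophils or mast cells also held Il6, so the fibroblast markers do not measure all free Il6 RNA. Its part in the Il6 of neutrophils and other immune cells was not tested.

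**Figure D2:**
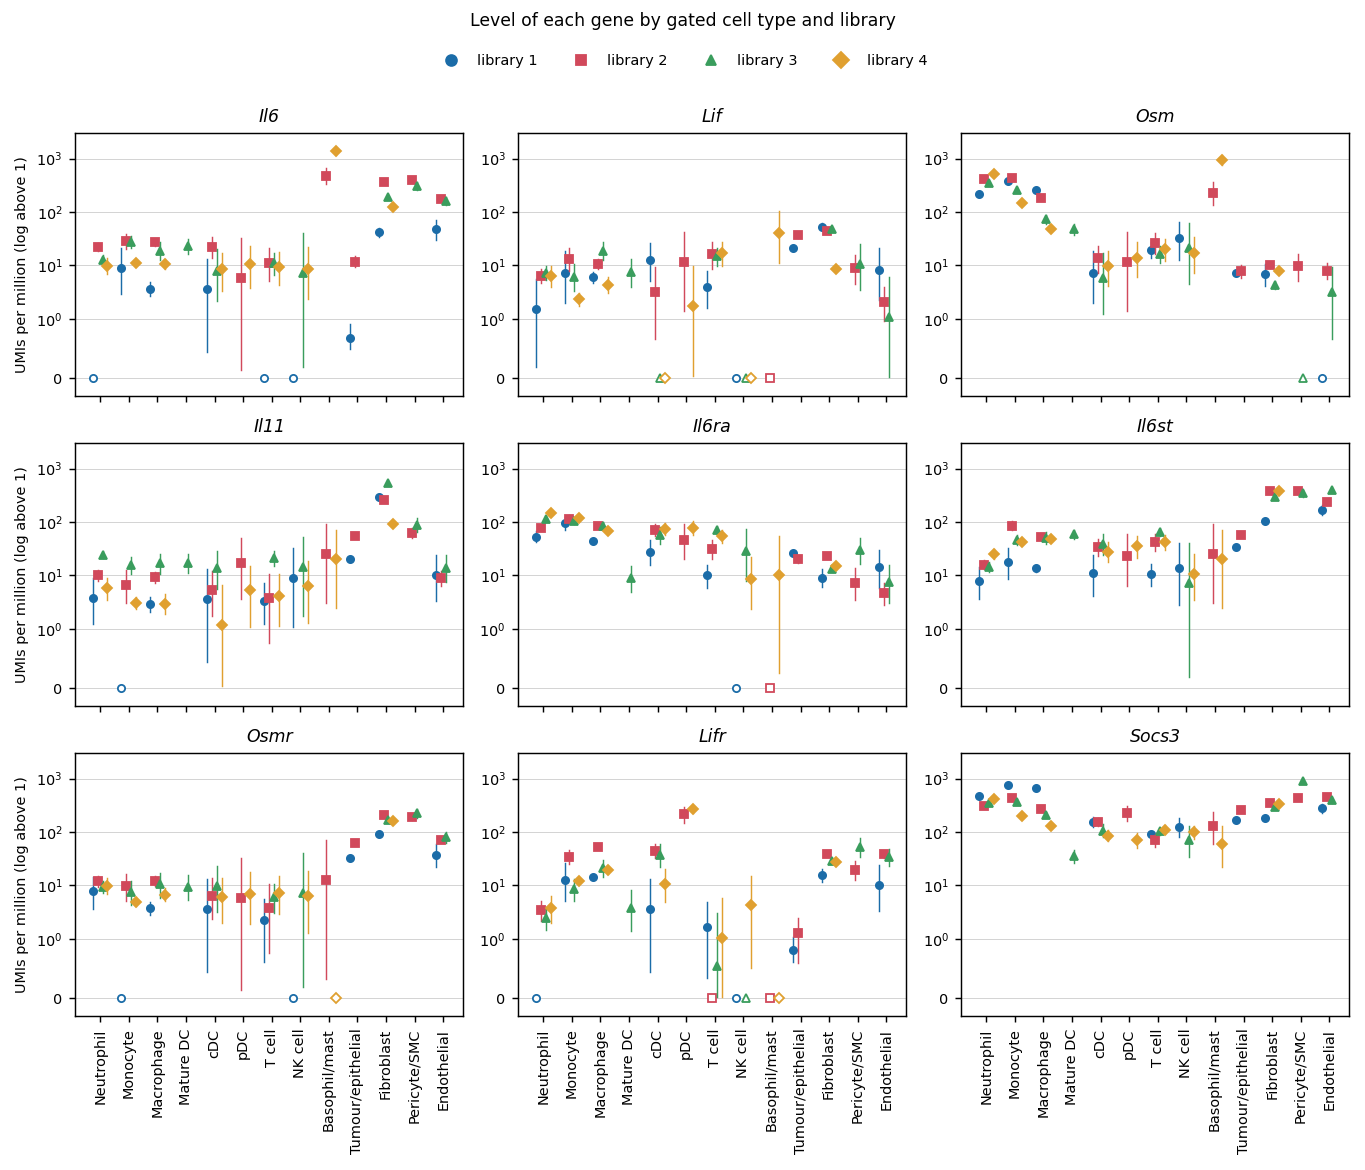
Each panel plots the level of 1 gene (CPM, log scale above 1) in each gated cell type, with 1 symbol per library and lines for the 95% Poisson interval, for types with at least 20 cells in that library. Open symbols mark levels of 0. Il6 reaches 1369 in basophils or mast cells of library 4, Lifr 214 and 265 in plasmacytoid dendritic cells, and Il11 93 to 544 in fibroblasts.

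Il11 encodes interleukin-11, a cytokine known for its role in stromal fibrosis. Its fibroblast levels were 297, 256, 544 and 93 in libraries 1 to 4. The fibroblast range lay above that of every other type, pericytes being next at 61.7 and 89.5. Library 3 held 29636 of the 47870 Il11 UMIs, and the pooled fibroblast level of 286 fell to 174 without it. The transcripts were concentrated in few cells: 199 cells held 50% of all Il11 UMIs, among 3999 cells with any, and the highest cell had 726. For the same share Lif needed 394 cells, Il6 516, Osm 1751 and Il6ra 2793. The genes lay in cell types of different depth, and the part of depth in these numbers was not tested. Neutrophils were at 3.85, 10, 24.5 and 5.78, which was 1.3%, 3.91%, 4.51% and 6.22% of the fibroblast level. The 10 fibroblast markers were at 0.508%, 3.42%, 3.85% and 5.22% in those neutrophils, so neutrophil Il11 lay close to them in libraries 2 to 4. The part of free RNA in neutrophil Il11 was not tested. Tumour or epithelial cells were at 20.3 in library 1 and 54.8 in library 2.

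Lif encodes leukaemia inhibitory factor. Fibroblasts were at 53.4, 44.6, 48.1 and 8.42 in libraries 1 to 4, so that 3 libraries lay close together and library 4 stood below them. Tumour or epithelial cells were at 21.2 and 36.5 in libraries 1 and 2, below the fibroblasts of the same library in each. T cells were at 3.87, 16.1, 14.7 and 16.8. In library 4 that was 200% of the fibroblast level, while the fibroblast markers stood at 3.74% in the same T cells. Within T cells, those with Cd4 but no Foxp3 UMI were at 18.1 and those with Cd8a or Cd8b1 at 4.23, but 238 of the 260 Cd8 cells came from library 1 and the comparison cannot be told apart from the library. The Lif range of fibroblasts overlapped that of tumour cells. It also overlapped that of basophils or mast cells, which ran from 0 to 40 over the 2 libraries with at least 20 such cells. NK cells had 0 Lif UMIs in 148 cells, which allows up to 3.37 CPM.

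Osm encodes oncostatin M, the family's cytokine of myeloid cells. Neutrophils were at 217, 413, 345 and 519 in libraries 1 to 4, and 14.2%, 26.2%, 22% and 33.3% of them held an Osm UMI after thinning. Monocytes were at 386, 430, 256 and 145, and macrophages at 256, 181, 72.8 and 47.1. The ranges of the 3 types overlapped. Their order turned with the library: monocytes led neutrophils in library 1, the intervals of both overlapped in library 2, and neutrophils led in libraries 3 and 4. The pooled monocyte level of 174 became 332 without library 4, which held 2514 of the 3146 monocytes, and the macrophage level of 175 became 108 without library 1. Another 1802 cells scored too close between the macrophage and the monocyte type and were counted in neither. In library 4 there were 1167 of them, more than its 947 macrophages, with an Osm level of 79.8 and 11.8% of the Osm UMIs of that library. Basophils or mast cells were at 228 in the 21 cells of library 2 and 949 in the 24 cells of library 4. Their median of 589 over these 2 libraries was the highest of the ranked types, with neutrophils next at 379 over 4 libraries. In library 2 basophils or mast cells lay below neutrophils and monocytes. Fibroblasts were at 4.33 to 10.1, which was 1.26% to 3.12% of the neutrophil level, beside 0.809% to 1.32% for the 11 neutrophil gate markers. T cells, at 16.3 to 26, stood at 3.85% to 8.94%, beside 0.819% to 1.36% for those markers. Macrophages and monocytes also held Osm, and in library 1 macrophages held 3491 of the 5303 Osm UMIs against 281 in neutrophils. The neutrophil markers therefore do not measure all free Osm RNA, and its part in the T cell values was not tested.

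Among the receptor chains, Il6ra was highest in monocytes, neutrophils and macrophages. It encodes the chain that binds interleukin-6, and 3′ counting does not separate the membrane form from the soluble one. Monocytes were at 95.1, 114, 103 and 118 in libraries 1 to 4, a highest over lowest of 1.24. Neutrophils were at 53.2, 76.6, 114 and 144, and macrophages at 44.5, 84.2, 84.1 and 68.2. The neutrophil range overlapped both of the others, while monocytes lay above macrophages. The cells of library 4 that scored too close between macrophage and monocyte were at 84.8 and held 15.4% of its Il6ra UMIs. Fibroblasts were lower, at 9.12, 23.1, 13.2 and 15.2, and tumour or epithelial cells were at 26.2 and 20 in libraries 1 and 2. Not all leukocytes were above them, since the median over libraries was 8.48 in NK cells and 5 in basophils or mast cells. T cells differed among themselves. Cells with Cd4 but no Foxp3 UMI were at 61.3, Foxp3 cells at 34.2 and Cd8 cells at 7.75 with the libraries pooled. Within library 1, Cd4 cells lay at 28.2 (5.81 to 82.3, from 31 cells) and Cd8 cells at 4.49 (1.65 to 9.77, from 238 cells), so the intervals overlapped there. The 12 Cd8 cells of library 3 were at 124 (40.3 to 290), and most Cd8 cells came from library 1, so T cell subset and library cannot be told apart. In library 3 mature dendritic cells lay at 8.88 (4.85 to 14.9) and conventional dendritic cells at 57 (38.2 to 81.9).

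Il6st, the gp130 gene, was found in every gated type and was highest in the stroma. Fibroblasts were at 103, 379, 290 and 380, pericytes at 377 and 345 in libraries 2 and 3, and endothelial cells at 169, 239 and 396 in libraries 1 to 3. These ranges overlapped each other and lay above those of all leukocytes with at least 20 cells in a library. In the thinned data 11.8% of fibroblasts in library 1 and 27.4% to 33.5% in the others held an Il6st UMI. Macrophages were at 13.7, 53.4, 50.4 and 48.6, or 12.8% to 17.4% of fibroblasts, and monocytes at 17.9, 84.9, 46.5 and 42.9, or 11.3% to 22.4%. The fibroblast markers stood at 0.28% to 4.18% in macrophages and 0.356% to 3.24% in monocytes, below Il6st in both types. In library 1 tumour or epithelial cells held 2175 of the 3622 Il6st UMIs and fibroblasts 304, so the fibroblast markers do not measure the free Il6st RNA of that library. In neutrophils Il6st was at 4.17% to 7.5% of the fibroblast level, beside 0.508% to 5.22% for the markers, and lay close to them in libraries 2 to 4. The part of free RNA in neutrophil Il6st was not tested. Among T cells, Foxp3 cells were at 71.4 in library 2 and 160 in library 3, above the Cd4 cells without Foxp3 at 18.7 and 37.7, with intervals apart. In library 4, with 16 Foxp3 cells, the levels were 37 and 42.3 with overlapping intervals. In library 1 the 29 Foxp3 cells had no Il6st UMI, which allows up to 35 CPM by the limit of 3 counts. The Cd4 cells without Foxp3 were at 18.8 (2.27 to 67.8) there, so library 1 does not show which group was higher.

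**Figure D3:**
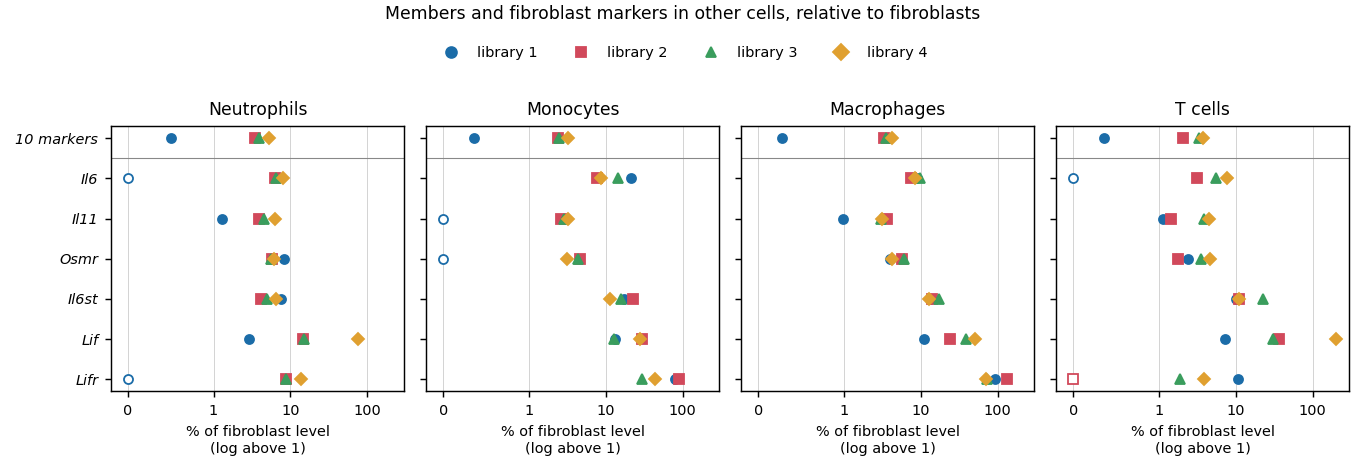
Points give the level in neutrophils, monocytes, macrophages and T cells as a percent of the fibroblast level of the same library (log scale above 1), for the 10 fibroblast gate markers and 6 of the genes. In neutrophils Il11, Osmr and Il6st lie close to the markers in libraries 2 to 4, while Lifr in macrophages (70.5% to 134%) and Lif in T cells (7.25% to 200%) lie far to the right of them.

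Osmr encodes the chain that joins gp130 to bind oncostatin M. It was at 92.6, 207, 171 and 160 in fibroblasts of libraries 1 to 4 and at 190 and 226 in pericytes of libraries 2 and 3. Endothelial cells were at 37, 71.8 and 80.5, and tumour or epithelial cells at 32.1 and 62.8. The fibroblast range lay above the endothelial one. Leukocytes were low. Neutrophils were at 7.71 to 11.9, macrophages at 3.74 to 12 and T cells at 2.21 to 7.35, that is 1.79% to 8.33% of fibroblasts over these types. Osm and Osmr were thus highest in different cells: the correlation of their levels over 30 sums of a cell type in a library was -0.54, a description over sums that share libraries.

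Lifr encodes the leukaemia inhibitory factor receptor chain, which oncostatin M can also use. Plasmacytoid dendritic cells had the highest level, 214 (150 to 295) in the 26 cells of library 2 and 265 (224 to 310) in the 86 cells of library 4, and their range lay above every other. In the thinned data 16% and 23.3% of them held a Lifr UMI. Fibroblasts were far lower, at 15.5, 38.9, 28.4 and 27.4. Macrophages lay at 14.5, 52.1, 21 and 19.3, which was 70.5% to 134% of the fibroblast level, beside 0.28% to 4.18% for the markers. Macrophages with a Cd163 UMI were above those with Arg1 and no Cd163 UMI in every library, at 40.6, 74.3, 27 and 29.6 against 12.1, 17, 16.3 and 8.47. The intervals were apart in 3 libraries and overlapped in library 3, where they were 15.7 to 43.3 and 8.14 to 29.2. Macrophages with neither a Cd163 nor an Arg1 UMI were at 15.2, 73.5, 16.1 and 23.1. Their intervals overlapped those of the Cd163 cells in libraries 2 to 4, so a higher Lifr was not particular to Cd163 cells there. Conventional dendritic cells with Cd209a were at 93.5 and those with Xcr1 or Clec9a at 8.15. In library 2, where each group had over 30 cells, the levels were 86.3 (57.8 to 124) and 20.7 (10.7 to 36.2). The pooled Cd209a value rested on 53 UMIs in 19 of 55 cells. Cd209a was detected in 30.7% of conventional and 29.3% of plasmacytoid dendritic cells, so this gene alone does not separate the 2 types. T cells were at 0.924, from 5 UMIs in 1045 cells, and tumour or epithelial cells at 0.862.

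Socs3, the inhibitor induced by STAT3, was the most counted of the 9, with 95175 UMIs in 18648 cells, and no single type led in every library. Monocytes were at 759, 436, 361 and 198 in libraries 1 to 4, macrophages at 654, 267, 212 and 127, and neutrophils at 467, 310, 353 and 417. Fibroblasts were at 179, 343, 287 and 329, the reverse of the macrophages in that library 1 was the lowest. The mix of fibroblast subsets differed by library, as given below. Endothelial cells were at 276, 443 and 390 in libraries 1 to 3. Pericytes were at 440 in library 2, near the monocytes and endothelial cells there. In library 3 the 37 pericytes were at 902, above every other type ranked in that library. Tumour or epithelial cells were at 168 and 253, and T cells at 70.4 to 111. Each of the 6 highest types overlapped its neighbour in the order of medians, but the ranges cover different libraries. Pericytes were ranked in libraries 2 and 3 only, and the highest monocyte level came from library 1. The pooled macrophage level of 402 became 196 without library 1.

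**Figure D4:**
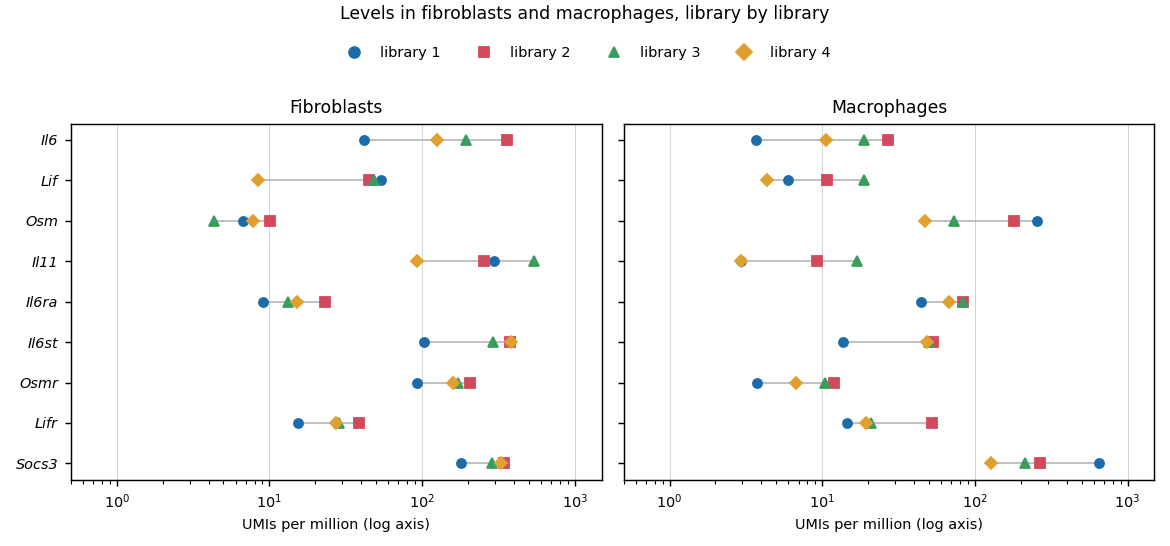
Levels of the 9 genes (CPM, log axis) in fibroblasts and macrophages, 1 symbol per library joined by a grey line for the range. In fibroblasts Il6, Lif and Il11 span 8.62-fold, 6.34-fold and 5.85-fold, and in macrophages Socs3 and Osm are highest in library 1.

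The spread over libraries was compared gene by gene. A 4-fold rule was chosen after the values were seen. In fibroblasts the highest library was at least 4-fold the lowest for 3 of the 9 genes, Il6 (8.62), Lif (6.34) and Il11 (5.85), against 9.84% of 13883 genes tested. Osm, the other cytokine gene, spanned 2.33-fold, the 4 receptor chains 2.23-fold (Osmr) to 3.7-fold (Il6st) and Socs3 1.91-fold, and the median over all genes was 1.67. Library 1 had the fewest fibroblasts, and without it the count was 2 of 9, Lif (5.71) and Il11 (5.85), against 3.69% of genes and a median of 1.43. The highest library was not the same: library 2 for Il6, library 1 for Lif and library 3 for Il11. Library 4 was the lowest for Lif and Il11, and without it only Il6 passed 4-fold, with no share over all genes given. In macrophages 5 of 9 genes passed, against 12.5% of 10273 genes, and over libraries 2 to 4 it was 2 of 9 (Il11 and Lif) against 2.59%. The 5 were Il6 (7.31), Il11 (5.74), Osm (5.44), Socs3 (5.15) and Lif (4.37). The macrophage Il11 levels were 0.99% to 3.62% of those in fibroblasts, and lay below the share of the fibroblast markers (3.56% and 4.18%) in libraries 3 and 4. Macrophage Il6 was at 7.49% to 9.79% of the fibroblast level of the same library, beside 0.28% to 4.18% for the markers. The part of free RNA in the spread of Il6 and Il11 was not tested. The mix of macrophages also differed: 27 of the 1275 of library 1 and 592 of the 1262 of library 2 held a Cd163 UMI. The part of this mix in the spread was not tested. Macrophage Osm and Socs3 were both highest in library 1 and lowest in library 4. Which treatment each library had was not known, and treatment, animal and library cannot be told apart.

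Fibroblasts were also split by Lrrc15, a marker of myofibroblast-like cancer fibroblasts, and Dpt, a marker of a more universal fibroblast state. Below, Lrrc15 cells are those with Lrrc15 and no Dpt UMI, and Dpt cells those with Dpt and no Lrrc15 UMI. In all 4 libraries the Lrrc15 cells had the lowest Il6, Il6st and Socs3 of the 4 subsets. Their Il6 was at 15, 124, 127 and 53 in libraries 1 to 4, from 87, 93, 24 and 8 cells, against 62.1, 414, 197 and 138 in cells with Dpt and no Lrrc15, from 15, 700, 694 and 760 cells. The values from 8 and 15 cells are under the minimum of 20 cells used elsewhere, and libraries 2 and 3 alone had more than that in all 4 subsets. Il6st was at 63.8, 205, 153 and 187 against 155, 446, 295 and 414. Socs3 was at 143, 186, 189 and 169 against 323, 439, 303 and 347. For Il6, Il6st and Socs3 the intervals of these 2 subsets were apart in each library. Il11 did not follow: it was at 350, 391, 714 and 237 in the Lrrc15 cells and 397, 220, 526 and 100 in the Dpt cells. Of these 2 subsets the Lrrc15 cells were higher in libraries 2 to 4, with overlapping intervals in library 1. Cells with neither marker were at 174 (18 cells), 649, 775 and 94.6, and cells with both at 240, 238, 492 and 65. In library 2 the cells with neither lay above the Lrrc15 cells, and in library 3 the intervals of these 2 overlapped. A higher Il11 was thus not particular to the Lrrc15 cells in those libraries. Osmr was at 93.8, 270, 194 and 212 in the Lrrc15 cells against 124, 195, 169 and 166 in the Dpt cells, and the intervals were apart in library 2 only. The subsets rest on detection of single UMIs and differ in depth, with a median of 19154 UMIs in Lrrc15 cells and 30479 in Dpt cells, and the part of depth was not tested. Their mix also differed by library. Of the 181 fibroblasts of library 1, 87 held Lrrc15 without Dpt, 15 held Dpt without Lrrc15 and 61 held both. Of the 1059 of library 4 these numbers were 8, 760 and 195. Among Dpt cells Socs3 was at 323 in library 1, from 15 cells, and at 303 in library 3, so these cells do not show which of the 2 libraries was lower. The part of this mix in the spread over libraries was not tested.

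Pairs of genes were counted in the same fibroblast after thinning to 1000 UMIs (3588 cells). Osmr and Il6st, the 2 chains of the oncostatin M receptor, were found together in 5.99% (5.24 to 6.82). Il6st was held by 34.1% of cells with Osmr and by 29% of the rest. At 2000 UMIs these shares were 52% and 44.9%. By library they were then 22.9% and 16.7%, 50.9% and 50.6%, 54.1% and 41.3%, and 55.1% and 46.7% in libraries 1 to 4. Cells with Osmr had the higher share in each library, by little in library 2. Il6 and Il11 were together in 2.62%, and Il11 was held by 14.6% of cells with Il6 and 13.1% of the rest. Lif and Il11 stood apart. Il11 was held by 32.7% (23.7 to 42.7) of the 101 cells with Lif and by 12.8% (11.8 to 14) of the 3487 others. In libraries 2 and 3, which held 50 and 39 of the 101 cells, the shares were 28% against 10% and 38.5% against 24.3%. The intervals were apart in library 2 and overlapped in library 3. At 2000 UMIs they were apart in both, at 40% against 15.4% and 48% against 30.1%, while libraries 1 and 4 had 15 and 20 cells with Lif and showed 20% against 20.9% and 15% against 11.3%. In monocytes Il6ra was held by 11.6%, Il6st by 4.85% and both by 0.546% of thinned cells.

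**Figure D5:**
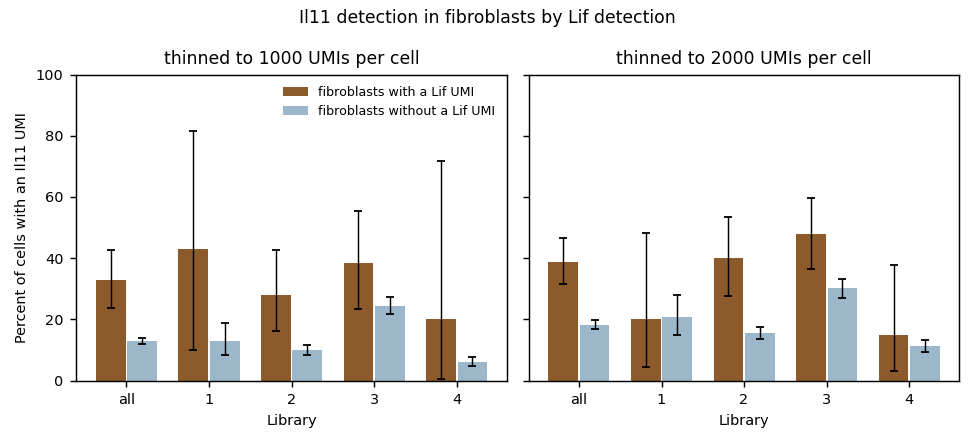
Bars give the percent of fibroblasts with an Il11 UMI among cells with and without a Lif UMI, for all libraries together and each library, at 1000 and at 2000 UMIs per cell, with 95% Clopper-Pearson intervals. With all libraries together the shares are 32.7% and 12.8% at 1000 UMIs, and in libraries 1 and 4 few cells held Lif.

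The levels of each gene over 30 sums of a cell type in a library (at least 50 cells each) were compared with those of 11393 genes on the log2(CPM + 10) scale. These sums share libraries and cell types, and the Pearson coefficients are descriptions. The genes most like Il6 were Gulp1 (0.92), Nid1 and Eln (0.91 each), and those most like Il11 were Vasn (0.95), Frmd6 and Tnc (0.94 each). Il11 and Pdzrn3 (0.78 each) were among the 3 nearest to Lif. Osm was nearest to the myeloid gene Cd14 (0.95), and Il6ra to Evi2a and Milr1 (0.89 each). Enah, Kdelr3 and Fkbp9 (0.97 each) were nearest to Osmr, Sec24d, Rock2 and Calu (0.91 each) to Il6st, Nucb2 (0.83) to Lifr and Tnfrsf1a (0.82) to Socs3. Among the 9 genes themselves Il6 with Il6st gave 0.91, Il11 and Il6st with Osmr 0.86 each, and Osm with Il6ra 0.71.

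Other genes of the pathway were taken from lists. Among the other cytokine genes, Ebi3, a subunit of interleukin-27, was highest in neutrophils (67.3 CPM), in each of the 4 libraries. Clcf1 was highest in NK cells (31.5) and Ctf1 in tumour or epithelial cells (10.4), while Cntf, Il31 and Ctf2 had 2, 7 and 27 UMIs in all kept cells. Of the 4 other receptor genes, 3 were highest in fibroblasts, as were 9.51% of 17349 genes with at least 100 UMIs. Il11ra1, the private chain for interleukin-11, was at 192 there and led in all 4 libraries, and pericytes were next at 47.1. Il27ra was highest in T cells (59.2).

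Of 12 transducers and regulators, 4 were highest in mature dendritic cells, as were 6.65% of all these genes, among them Stat3 (602, with 205 in fibroblasts) and Socs1 (257), although 184 of the 215 mature dendritic cells came from library 3. Jak1 was highest in NK cells (541), and Ptpn11, the phosphatase SHP2, in fibroblasts (89.2). The sheddases Adam17 and Adam10, which can release the interleukin-6 receptor from the membrane, were highest in neutrophils (214) and endothelial cells (138). Of 12 genes known as STAT3 targets, 6 were highest in neutrophils, as were 7.07% of all these genes, with Cebpb at 4479, Pim1 at 3406 and Mcl1 at 2980, and 2 in fibroblasts, Timp1 (4730, with pericytes next at 505) and Myc (118). Many other signals induce these genes. Of the 5 other genes of the Socs family tested, Socs2 was highest in mature dendritic cells (535) and Socs5 in fibroblasts (45.2).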

How the data were processed

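The authors deposited 1 matrix of counts (UMIs per gene and barcode) for all 4 samples. Its header names Cell Ranger 6.1.2, the design text 3.0.2 and the submitters' processing notes 2.1.1, with mm10. All 55450 gene IDs were found in GENCODE vM21. The labels state 15603 cells, the matrix holds 33064 barcodes, and 32133 passed the stated filter (at least 300 genes, at most 15% mitochondrial UMIs).

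Barcode suffixes are called libraries 1 to 4, and no source used here ties one to a sample. Cells were gated by marker genes scored as UMIs per 10000 against the 30 cells that held the most markers of each type, with a score of at least 0.3, at least 3 markers and 1.5 times the next score. The scoring rule was set after seeing the data. Cells whose best type met the score and marker limits but not the margin of 1.5 (2674) were left out of types. Their second type did not have to meet those limits. No doublet caller was run. Levels are UMIs per 1000000. Types were ranked only where a library held at least 20 cells, and levels printed from fewer cells are given with their cell number. Shares used cells thinned to 1000 UMIs, which left out 1890 cells. Depth per library and its effect on precision are given by the 95% exact intervals. The limit beside a count of 0 is 3 counts.

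The members and gene lists were chosen with earlier results of these data known. The genes named were the 9 members, the listed pathway genes and the 3 genes most like each member. A listed gene is not reported here. Alternatives covered thinning, detection, weighting, gates and leaving out each library, and those chosen after seeing the data are named as such. The shares over all genes were also added then. The code was tested on simulated data. Python 3.11.15, numpy 2.4.6, scipy 1.17.1, pandas 2.3.3 and matplotlib 3.10.9 were used.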

Additional observations from a re-analysis of the deposited data

How the results depend on the processing

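With other filters, gates, depths and weightings that kept all libraries, the same 4 genes kept 1 leading type over the 6 types. The number of genes with over 50% of their UMIs in fibroblasts was then 4 to 6, against 5, and the number with a 4-fold range in fibroblasts was 3 to 4, against 3. Leaving out 1 library gave 3 to 4 genes for the leading type, 5 to 7 for the share in fibroblasts and 1 to 3 for the range. At 2000 UMIs per cell, Osmr and Il6st were found together in 15.4% of fibroblasts, Il6 and Il11 in 6.12%, and Lif and Il11 in 1.87%, since more UMIs per cell detect more genes. Of 153 levels under alternatives that kept all libraries, 151 were within 1.5-fold, and the other 2 were Il6 in endothelial cells (345 thinned and 264 as a mean over cells, against 151). With 1 library left out, 64 of 68 were within 1.5-fold. Leaving out cells whose barcode occurred in 2 libraries, an alternative chosen after seeing the data, left counts of 4, 5 and 3. No paired analysis was possible because no test was made and the barcodes carry no replicate number. Rare types rest on few cells, and intervals cover counting error only.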

Other observations

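Cells that scored too close between the fibroblast and the pericyte type were left out of both types. There were 49 of them (the 1802 cells between macrophage and monocyte are described above), 34 in library 3. These 49 cells held 2810 Il11 UMIs, 5.87% of all. In library 3 their Il11 level was 1967 CPM (1892 to 2043), beside 544 in fibroblasts of that library, and they held 8.86% of its Il11 UMIs. One of them held 361 Il11 UMIs. Such cells can be doublets or cells with both programmes, and these cannot be told apart here.

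Conventional dendritic cells with Cd209a also differed from those with Xcr1 or Clec9a in Socs3. In library 2 the levels were 268 (215 to 329) and 93.3 (70.1 to 122), and in library 3, with 14 and 20 cells, 183 (121 to 266) and 75 (49 to 110).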
